A study of Arabidopsis thaliana with 6 samples.

Results

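RPN2A (AT2G32730), RPN2B (AT1G04810) and RPT4B (AT1G45000) encode subunits of the base of the 19S regulatory particle of the proteasome. Each gene was followed through the probe set of the array that the platform annotation lists for that locus alone, so the 3 genes are 3 of the 13355 named genes on the array. They are also the only 3 of 17 listed base subunit genes with such a probe set. Transcripts were measured on 6 one-colour Affymetrix arrays of whole 14-day-old Arabidopsis thaliana seedlings of ecotype Col-0, grown under 16 h light and 8 h dark. All seedlings were stable transgenics of the T3 generation with constitutive XVE, a chimeric factor that enters the nucleus with estradiol and then switches on RPXΔC from a LexA promoter. RPX is a NAC transcription factor, and ΔC names a version that lacks a C-terminal part. The 3 estradiol arrays came from seedlings given 10 µM estradiol for 2 h. The 3 mock arrays came from the same kind of seedlings given a mock treatment for 2 h. The mock is named as ethanol in the series' design text and as medium free of inducer in the treatment protocol. How many transgenic lines were used is not stated in the labels, and no seedlings without the construct are among the samples, so estradiol and RPXΔC act together in this comparison. RPX, taken here as ANAC078 (AT5G04410), is listed for 0 probe sets of the platform annotation, so whether the transgene came on was not checked.

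The proteasome degrades proteins tagged with ubiquitin. Its 20S core holds the proteolytic sites, and the 19S particle on its end binds, unfolds and feeds in the substrate. The base of that particle consists of a ring of RPT ATPases, which pull on the substrate, and of large non-ATPase proteins that act as scaffolds. RPN2 is one of these scaffolds, and in yeast and human cells it carries the ubiquitin receptor Rpn13. Arabidopsis has paralogs, RPN2A and RPN2B, for this subunit, and RPT4A and RPT4B for the ATPase RPT4. NAC factors related to RPX are known in Arabidopsis as activators of proteasome genes, and the title of the series gives the search for direct targets of RPX as its purpose.

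Median signal lay between 35.7 and 38.7 on the 6 arrays. Estradiol replicate 3 had the highest 3'/5' signal ratio of actin on both sets of actin control probes, 15.9 against 6.87 to 12.8 on the other arrays in one set and 15.2 against 4.37 to 6.11 in the other. A high ratio is a sign of partly degraded or incompletely copied RNA. Mock replicates 1 and 2 had a 25S rRNA control signal of 302 and 286, against 918 to 1534 on the other 4 arrays. Results are therefore also given without estradiol replicate 3, and with mock replicate 3 as the only mock array. Because whole seedlings were used, fewer cells that express a gene and less transcript per cell cannot be told apart.

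RPN2B had the largest ratio of estradiol to mock signal of the 3 genes, while RPT4B had the largest difference in signal units. The signal of RPN2B, on the linear intensity scale of the deposited table, was 197, 171 and 140 on mock replicates 1, 2 and 3. On estradiol replicates 1, 2 and 3 it was 467, 484 and 418. The groups did not overlap, and the lowest estradiol value stood 221 units above the highest mock value. The ratio of the group means was 2.69, from 169.8 ± 28.5 in mock to 457 ± 34.4 with estradiol (SD, n = 3 each).

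On the log2(signal + 16) scale RPN2B rose by 1.36 ± 0.14 (SE), with a 95% interval from 1.02 to 1.69 (limma adjusted p = 0.0458, all 3 estradiol values above all 3 mock values). A difference at least as high was found in 0.18% of the 22746 probe sets tested. In this comparison 26 probe sets passed an adjusted p under 0.05 with a higher signal, which is 0.114% of those tested, and 0 passed with a lower one. At an unadjusted p under 0.05 limma gave 900 higher and 1042 lower probe sets, 3.96% and 4.58% of those tested. Separation of the groups without overlap was more common than a call, with all estradiol values above mock in 5.79% of probe sets and below mock in 7.74%.

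RPT4B, the ATPase subunit, had the smallest relative spread of the 3 genes. Its signal was 464, 446 and 409 on mock replicates 1, 2 and 3. It was 906, 982 and 889.6 on estradiol replicates 1, 2 and 3. The coefficient of variation was 6.38% in mock and 5.31% with estradiol, and the groups lay 426 units apart at their nearest values. The mean signal was 2.11 times as high with estradiol, at 926 ± 49.2 against 439.6 ± 28.1 (SD, n = 3 each). RPT4B rose by 1.05 ± 0.10 (SE) on the log2 scale, with a 95% interval from 0.81 to 1.29 (limma adjusted p = 0.045). A difference at least as high was found in 0.378% of probe sets.

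RPN2A, the paralog of RPN2B, did not pass the threshold. Its signal was 179, 192 and 217 on mock replicates 1, 2 and 3. With estradiol it was 268, 253 and 295 on replicates 1, 2 and 3. All 3 estradiol values were above all 3 mock values here too, but the nearest values of the groups were only 36.5 units apart. The means were 195.8 ± 19.4 in mock and 272 ± 21.3 with estradiol (SD, n = 3 each), a ratio of 1.39. The log2 difference was 0.45 ± 0.11 (SE), with a 95% interval from 0.18 to 0.71. Its unadjusted limma p was 0.00599 and its adjusted p 0.356. A difference in the same direction at an unadjusted p under 0.05 was found in 3.96% of probe sets, and 2.56% had a difference at least as high as that of RPN2A. The interval lies above 0 for RPN2A taken alone, but the difference did not pass over all probe sets.

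**Figure D1:**
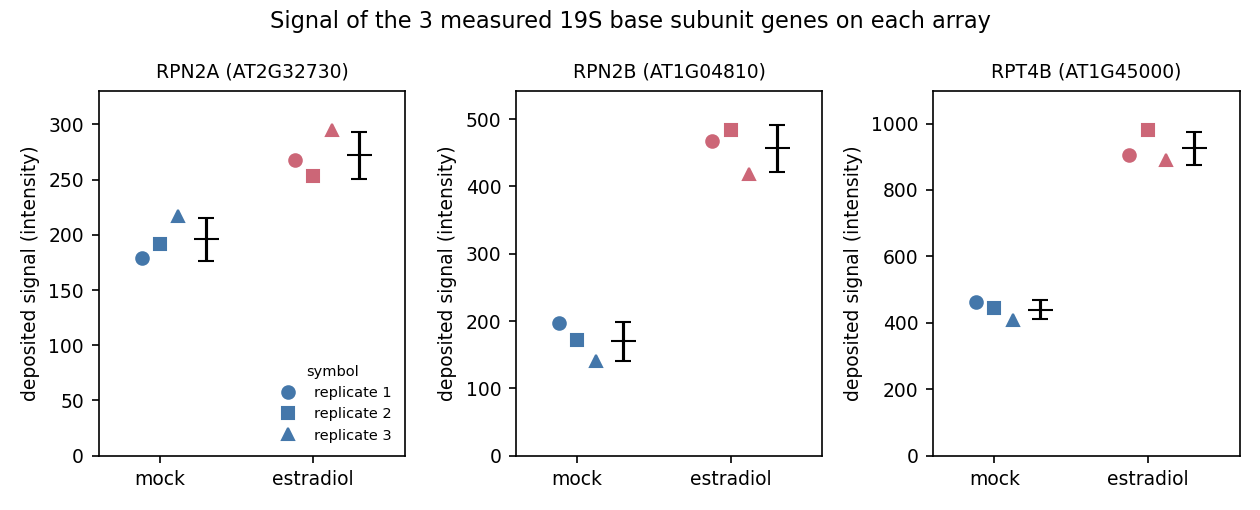
Deposited signal (linear intensity, vertical axis from 0) of RPN2A, RPN2B and RPT4B on each of the 3 mock (blue) and 3 estradiol (red) arrays, with a symbol for each replicate number and black bars for the group mean ± SD. The groups are separated in all 3 panels, by 36.5 units for RPN2A, 221 for RPN2B and 426 for RPT4B at their nearest values.

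The calls of RPN2B and RPT4B were close to the threshold. They ended in most of the fits with an array left out. With all 6 arrays they ended at a pseudocount of 1 (limma adjusted p = 0.161 for RPN2B and 0.171 for RPT4B). They also ended with the replicate number as a block (0.0572 and 0.0674). The limma adjusted p was lower without the dimmest 25% of probe sets (0.00495 for RPN2B and 0.00742 for RPT4B). It was lower too with a variance trend (0.0168 for both) and with array weights (0.0147 for both). With each array left out in turn, the log2 difference of RPN2B stayed between 1.24 and 1.46 and that of RPT4B between 1.00 and 1.09, but both calls ended in each of the 5 fits without mock replicate 1, mock replicate 2, mock replicate 3, estradiol replicate 1 or estradiol replicate 2. Their adjusted p in those fits lay between 0.155 and 0.29 for RPN2B and between 0.181 and 0.256 for RPT4B. Without estradiol replicate 3, the array with the high actin ratio, RPN2B had 1.42 (limma adjusted p = 0.0498) and RPT4B 1.08 (adjusted p = 0.0474), when 0.251% of probe sets were called higher. With mock replicate 3 as the only mock array, which leaves out both arrays with the low rRNA signal, the differences were 1.59 for RPN2B, 1.15 for RPT4B and 0.30 for RPN2A, none of them called. The fit with mock replicate 3 as the only mock array assumes that this array varies like those of the estradiol group.

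**Figure D2:**
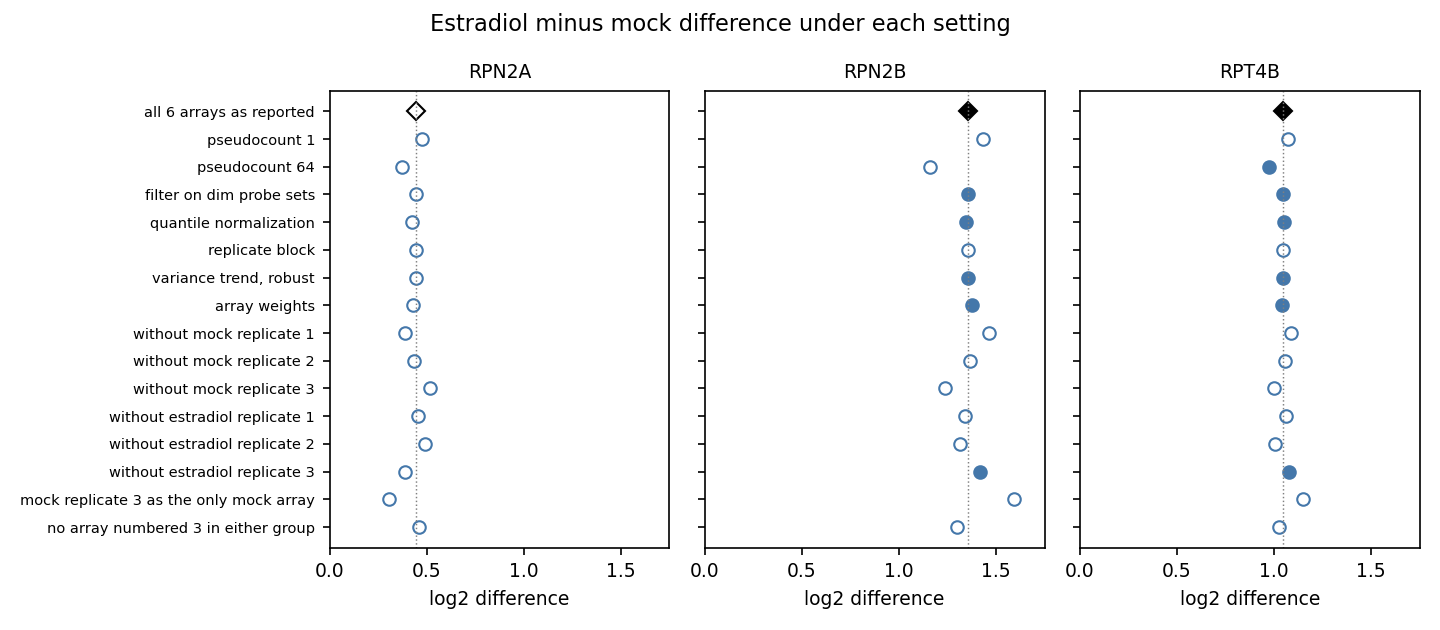
Log2 difference between estradiol and mock (horizontal axis) of RPN2A, RPN2B and RPT4B under each setting (vertical axis), where diamonds are the reported values, and filled symbols mark a limma adjusted p under 0.05. Values stayed between 0.30 and 0.52 for RPN2A, 1.16 and 1.59 for RPN2B, and 0.98 and 1.15 for RPT4B, while the calls of RPN2B and RPT4B came and went.

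The RPN2 paralogs were compared by a gene-by-treatment contrast, which asks whether the log2 ratio of RPN2B to RPN2A within an array differs between the groups. A constant difference in probe affinity largely cancels in that comparison, whereas the ratio on any one array does not show which paralog is more abundant. Whether either probe set also reads transcript of the other paralog was not tested, and such signal would not cancel. The log2 ratio was 0.13, -0.15 and -0.57 on mock replicates 1, 2 and 3. On estradiol replicates 1, 2 and 3 it was 0.77, 0.89 and 0.48. The groups did not overlap, and within either group replicate 3 had the lowest ratio.

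The mean ratio moved from -0.20 ± 0.36 in mock to 0.71 ± 0.21 with estradiol (SD, n = 3 each), a contrast of 0.91 on the log2 scale. On this scale the ratio of RPN2B to RPN2A was 1.88-fold higher with estradiol. This contrast was 3.11 times the pooled SD between arrays of a group. The exact permutation test over the 6 arrays gave p = 0.1, two-sided, which is the smallest p that 3 arrays against 3 allow, and p = 0.1 after adjustment over the 3 pairs compared. When the log2 ratio of every probe set to RPN2A was fitted in limma, the contrast had an SE of 0.204 and a 95% interval from 0.47 to 1.35 (limma adjusted p = 0.0236). In that fit 0.462% of probe sets were called higher and 53.3% lower relative to RPN2A. All of these ratios share the values of RPN2A, so the adjustment over probe sets is easily passed. The interval takes part of its spread from the same ratios, so it shares this limit, and its coverage was not tested. Leaving out single arrays gave contrasts from 0.72 to 1.08, with the lowest value without mock replicate 3. It was 1.29 with mock replicate 3 as the only mock array.

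The other pairs were contrasted in the same way. RPT4B over RPN2A had a log2 ratio of 1.30, 1.15 and 0.87 on mock replicates 1, 2 and 3 and of 1.70, 1.89 and 1.54 on the estradiol arrays. The contrast was 0.60 with a 95% interval in limma from 0.22 to 0.99 (exact permutation p = 0.1, the smallest possible; limma adjusted p = 0.0276 in the fit against RPN2A). RPN2B over RPT4B had -1.17, -1.30 and -1.44 in mock and -0.93, -0.995 and -1.06 on the estradiol arrays. Although these groups did not overlap either, the contrast was only 0.31, and its 95% interval from -0.01 to 0.62 includes 0 (exact permutation p = 0.1; limma adjusted p = 0.0555 in the fit against RPT4B, where 0.123% of probe sets were called higher and 98.4% lower). At a pseudocount of 64 the contrast was 0.18. Relative to the pooled SD between arrays of a group, RPN2B over RPT4B had 2.89. This is close to 3.11 for RPN2B over RPN2A and 3.03 for RPT4B over RPN2A. In limma the differences of the scaffold gene RPN2B and the ATPase gene RPT4B were not resolved from each other, and the interval allows up to 0.62 between them. That interval takes part of its spread from ratios that all share the values of RPT4B, and its coverage was not tested. The exact test gave its smallest possible p for every pair, so it cannot tell the pairs apart.

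**Figure D3:**
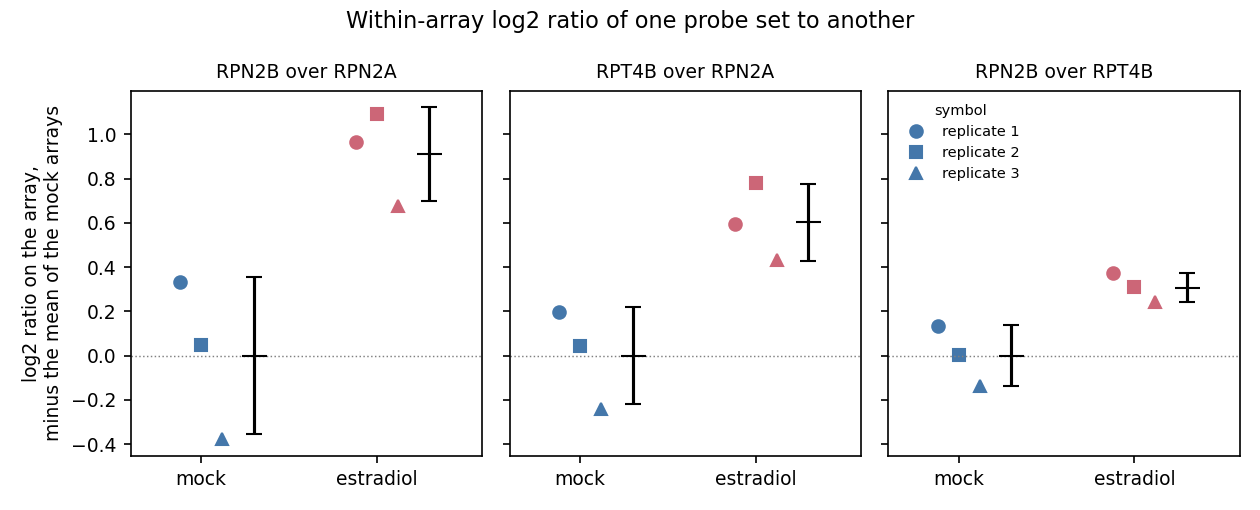
Log2 ratio of one probe set to another on each array, shifted so that the mean of the mock arrays is 0 (vertical axis), for RPN2B over RPN2A, RPT4B over RPN2A and RPN2B over RPT4B; blue is mock, red is estradiol, and black bars are the group mean ± SD of 3 arrays. The estradiol mean stands at 0.91, 0.60 and 0.31 in the 3 panels, and replicate 3 (triangles) is the lowest in each group of each panel.

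Within the groups the genes varied in different ways. RPN2A was highest on replicate 3 in both groups, by 0.14 above the mock mean and 0.11 above the estradiol mean on the log2 scale. RPN2B was lowest on the same arrays, at -0.24 and -0.12 from the group means, and RPT4B was also lowest there, at -0.10 and -0.06. Replicate 3 also had the highest actin 3'/5' ratio of its group on both control sets, in mock 12.8 against 10.2 and 6.87 on one set and 6.11 against 4.67 and 4.55 on the other. On the GAPDH controls mock replicate 3 was not the highest mock array. It had 1.73 against 1.65 and 2.07 on one set and 1.01 against 1.15 and 0.97 on the other. Mock replicate 3 is besides the mock array with the high rRNA signal. The part of the 3'/5' ratios or of the rRNA signal in the spread of these genes was not tested.

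The profile of each gene over the 6 arrays was set beside that of the other named genes with a mean signal of at least 64, which were 4405 genes for each member. Likeness was measured as the root mean square difference between log2 profiles after each was centred on its own mean. RPN2B and RPT4B differed by 0.177 by this measure, so that RPT4B was number 9 in likeness to RPN2B and RPN2B number 11 in likeness to RPT4B. RPN2B and RPN2A differed by 0.514: RPN2A stood at number 140 for RPN2B, and RPN2B at number 4163 for RPN2A. RPT4B and RPN2A differed by 0.343, with RPN2A at number 107 for RPT4B and RPT4B at number 2999 for RPN2A. The minimum was set on the mean over all arrays, so a dim gene could reach it through one group alone. The profile includes the treatment difference, so these orders describe the arrays and test nothing.

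For RPN2B the nearest profiles were those of AT3G47540 (root mean square difference 0.0815), AT1G67250 (0.117), which is UMP1A, a maturation factor of the 20S core, and AT3G01490 (0.12). AT3G47540 had signals of 46.8, 39.6 and 31.7 on mock replicates 1, 2 and 3 and of 114, 120.2 and 97.6 on the estradiol arrays, the same order of arrays as RPN2B. AT3G01490 had 50.0, 41.3 and 36.2 in mock and 168, 145 and 111 with estradiol. AT3G47540 and AT3G01490 reached the minimum of 64 only through their estradiol arrays, so the choice of candidates favoured a difference like that of RPN2B. For RPT4B the nearest were AT3G04780 (0.0866), AT3G47540 (0.111) and AT3G18940 (0.122), which is PBAC2, a 20S assembly chaperone. PBAC2 had 142, 152 and 133 in mock and 276, 265 and 299 with estradiol. The nearest gene was neither UMP1A for RPN2B nor PBAC2 for RPT4B. AT3G47540 is grouped with class IV chitinases, and no function is given here for AT3G01490 and AT3G04780. A link of these profiles to the proteasome was not tested.

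The nearest profiles to RPN2A were those of AT1G16000 (0.0481), AT1G28395 (0.054) and AT3G10610 (0.0601). Their log2 differences were 0.40, 0.41 and 0.42, and none passed the threshold (limma adjusted p = 0.465, 0.36 and 0.442). AT1G16000 had signals of 84.1, 87.0 and 108 on mock replicates 1, 2 and 3 and of 119.8, 122 and 140.7 on the estradiol arrays, so that replicate 3 was highest in both groups as it was for RPN2A.

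**Figure D4:**
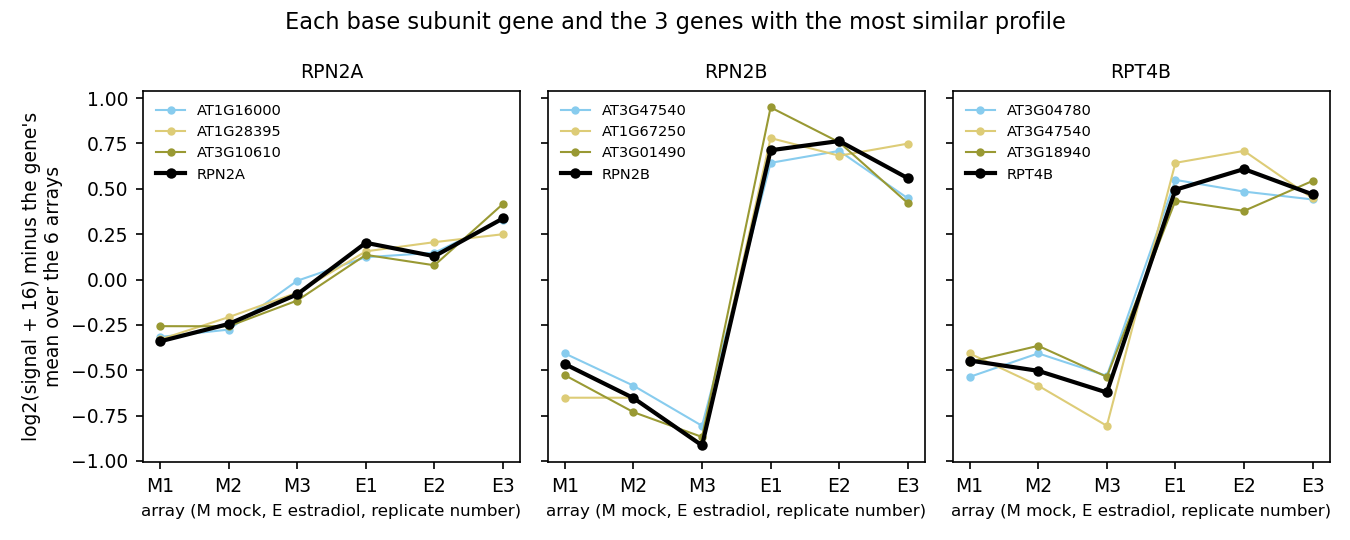
Log2(signal + 16) minus the gene's own mean over the 6 arrays (vertical axis) for RPN2A, RPN2B and RPT4B (black) and for the 3 genes with the smallest root mean square difference to each (colours), on the 3 mock (M) and 3 estradiol (E) arrays; lines only join the points of a gene. The step from mock to estradiol is 1.36 for RPN2B, 1.05 for RPT4B and 0.45 for RPN2A.

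Beside these base subunits, the other proteasome genes with a probe set of their own in the platform annotation give the setting of the response. Of 56 listed subunit genes of the 26S proteasome 9 have such a probe set. RPN2B and RPT4B are the 2 of these 9 that passed, against 0.114% of all probe sets called higher. The lists were chosen with earlier results of these data known, so this count and those below do not test them. The annotation lists no gene for 8730 of the 22746 probe sets tested. The array may therefore hold probes for subunits that count here as not measured. The other 14 base genes, RPT4A among them, were not measured through such a probe set and were not analysed here. The paralogs of RPT4 could therefore not be compared, and whether the RPT4B probe set also reads RPT4A was not tested.

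The 19S lid, which removes ubiquitin chains, had 5 of 15 genes measured. In limma 0 of the 5 passed, where 0.114% of probe sets were called higher. At an unadjusted p under 0.05 there were 3 of the 5, all with a positive difference, against 3.96% of probe sets. The groups did not overlap in 3 of the 5, which had all estradiol values above all mock values against 5.79% of probe sets in the background, and the median log2 difference was 0.87 against -0.03 over all probe sets tested. RPN11, the deubiquitinating enzyme of the lid, had signals of 505, 518 and 331 on mock replicates 1, 2 and 3 and of 1427, 1408 and 1127 with estradiol, with a log2 difference of 1.53 and a limma adjusted p of 0.0683. RPN12A had 0.95 (adjusted p = 0.111) and RPN7 had 0.87 (adjusted p = 0.24). RPN3B had 0.15 with a 95% interval from -0.12 to 0.43, and RPN9A had -0.20 with an interval from -0.62 to 0.21. RPN2A, with 0.45, lay between RPN3B and RPN7. The single measured gene of the 20S core, PAB2, an alpha subunit, had 0.91 with an interval from 0.58 to 1.25 (adjusted p = 0.121).

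All 3 listed chaperones of base assembly were measured, NAS2, NAS6 and HSM3, which in yeast hold partly built RPT modules until the base closes. NAS6 (AT2G03430) had signals of 88.8, 84.8 and 68.2 on mock replicates 1, 2 and 3 and of 373, 352 and 233 with estradiol. It rose by 1.77 ± 0.19 (SE) on the log2 scale (limma adjusted p = 0.0458). This call too ended without mock replicate 1, 2 or 3 or estradiol replicate 1 or 2 (adjusted p between 0.181 and 0.29), at a pseudocount of 1 (0.146) or 64 (0.105), and with mock replicate 3 as the only mock array (0.829). Without estradiol replicate 3 NAS6 had 1.98 (adjusted p = 0.0307), and leaving out single arrays gave differences from 1.65 to 1.98. The call was kept without the dimmest 25% of probe sets (limma adjusted p = 0.00368), with a variance trend (0.0168) and with array weights (0.0147). It was also kept with the replicate number as a block (0.0399), and ended without the arrays numbered 3 (0.084). HSM3 (AT3G15180) had 82.5, 82.2 and 55.7 in mock and 171, 140 and 112 with estradiol, with a log2 difference of 0.81 that did not pass (adjusted p = 0.293). NAS2 (AT5G57950) had overlapping groups, 87.1, 74.7 and 76.0 in mock and 88.9, 83.1 and 87.3 with estradiol. Its difference was 0.11 with a 95% interval from -0.13 to 0.34. Thus 1 of the 3 base chaperones passed, as 2 of the 3 base subunits did, against 0.114% of all probe sets. The genes were chosen with earlier results of these data known, so these shares do not test the lists. Differences between these genes were not tested.

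**Figure D5:**
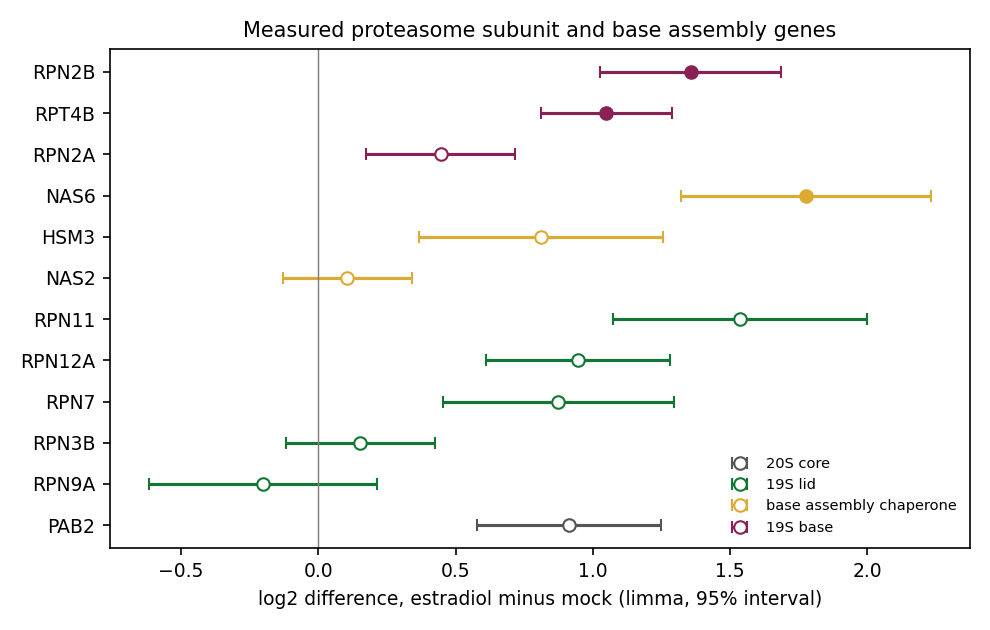
Log2 difference between estradiol and mock with its 95% interval from limma (horizontal axis) for each measured gene of the 19S base (purple), base assembly chaperones (yellow), 19S lid (green) and 20S core (grey); filled points have an adjusted p under 0.05 over all probe sets. RPN2B, RPT4B and NAS6 are filled, RPN2A lies at 0.45, and the intervals of NAS2, RPN3B and RPN9A cross 0.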

How the data were processed

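The authors deposited a linear intensity for every probe set on every array. GCOS and affy appear in the submitters' processing notes without version or role; how probes were summarised is not stated there. The 2% trimmed mean was between 100.0085 and 100.0094 on all arrays, so a common scaling had been applied, which cannot show a change in total transcript. Detection calls were not used here. Of 22810 probe sets, 64 controls were left out and 22746 tested without a filter. Genes came from the platform annotation, updated through Entrez IDs to TAIR10.1: 13513 probe sets have 1 gene, 503 several and 8730 none listed. Where a gene had several probe sets, the brightest on average was kept. Subunit names beyond these tables are those written with the gene lists. No coordinates or sequences are printed.

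Log2(intensity + 16) values were fitted in R 4.3.3 by limma 3.58.1 (functions lmFit and eBayes, two-sided, no covariate), p-values adjusted by Benjamini-Hochberg across every probe set tested, and a threshold of 0.05. The pseudocount makes differences of dim genes too small. Pairs of genes were compared by exact permutation with scipy 1.17.1, and by limma on log ratios as an alternative. The labels call the samples biological replicates. Both groups use the same replicate numbers, but no label says that a shared number pairs the samples. For that reason the numbers were not used as pairs, and the replicate number was a block in an alternative fit. Deviations from the group means correlated by 0.091, 0.11 and 0.33 between arrays of the same number. Arrays of different numbers were not compared in this way, so these values do not settle whether the samples are paired. Named genes were the 3 members, all measured genes of 4 lists, and the 3 genes nearest in profile to each member. The members and lists were chosen with earlier results of these data known. The fit was tested on simulated data with changes larger than those of the 3 members. Recovery of differences of their size was not tested. Figures used matplotlib 3.10.9 in Python 3.11.15.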

Additional observations from a re-analysis of the deposited data

How the results depend on the processing

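No difference or contrast of the 3 genes changed sign under any alternative run. RPN2A was not called in any of its 15 alternatives (0.30 to 0.52; 0.39 to 0.52 when each array was left out). RPN2B lost its call in 10 of 15, with 1.43 at a pseudocount of 1, 1.16 at 64, 1.36 with the replicate number as a block (replicate block, limma adjusted p = 0.0572), 1.59 with mock replicate 3 as the only mock array and 1.297 without the arrays numbered 3; leaving out each array gave 1.24 to 1.46. RPT4B lost it in 9 of 15, with 1.07 at a pseudocount of 1, 1.05 with the block (adjusted p = 0.0674), 1.15 with mock replicate 3 as the only mock array and 1.03 without the arrays numbered 3; leaving out each array gave 1.00 to 1.09. Both sets of arrays were chosen after seeing the data. Why calls ended with fewer arrays, at another pseudocount or with the block was not tested. RPN2B and RPT4B kept their calls without estradiol replicate 3, where 57 probe sets were called higher against 26 with all 6 arrays. By exact permutation no pair passes, also with the block (p = 0.25, the smallest it allows), and in limma RPN2B over RPN2A (0.91) and RPT4B over RPN2A (0.60) passed. Leaving out each array gave 0.72 to 1.08, 0.48 to 0.70 and, for RPN2B over RPT4B, 0.24 to 0.37; the last was 0.18 at a pseudocount of 64.

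The median of the base genes was 1.05, and 1.00 to 1.09 when each array was left out. It was 1.15 with mock replicate 3 as the only mock array. In each of these fits it is the value of RPT4B. The medians of the lid and the base chaperones were 0.76 to 1.04 and 0.66 to 0.95 when each array was left out. The core, with PAB2 as its only measured gene, had 0.79 to 1.02. The median of the chaperones was 0.57 at a pseudocount of 64 and 1.11 with mock replicate 3 as the only mock array. Probe sets called higher numbered 26, and 0 at a pseudocount of 1, 11 at 64, 96 without dim probe sets, 17 with the block, 51 with a variance trend, 91 with array weights, 0 to 57 when each array was left out and 0 for both added sets of arrays. Probe sets called lower numbered 0, but 1 without dim probe sets and 1 with array weights. Without detection calls, whether a signal lies above background is not known here.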
